A study of Mus musculus with 8 samples.

Results

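Major histocompatibility complex (MHC) class II presentation is represented here by 8 listed genes, Cd74, H2-Aa, H2-Ab1, H2-Eb1, H2-DMa, H2-DMb1, Ciita and Ctss, out of 37411 genes in the count table. They were followed across 8 bulk RNA libraries of congenic CD4+ effector T cells, about 10000 sorted cells each, recovered 6 weeks after transfer. The cells came from the small intestine lamina propria or the spleen. They carried a short hairpin in the LMPd retroviral vector, either shMdr1, against the multidrug transporter Mdr1, or shCD8, the control hairpin. The hosts were Rag1-/- mice on a C57BL/6 background that were Asbt-/- or Asbt+/+ (Asbt, also Slc10a2, is the bile acid transporter of the ileum), and Rag1 was lost in all groups. Each combination of tissue, hairpin and host had 1 library, so every comparison set 4 libraries against 4.

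Class II molecules present peptides from the endosomal route to CD4+ T cells. Their alpha and beta chains assemble with the invariant chain Cd74, cathepsin S (Ctss) trims that chain to a short peptide, and the H2-DM heterodimer exchanges this peptide for antigen. Ciita is the coactivator that switches the set on. In the mouse the set is typical of dendritic cells, macrophages and B cells, and in the gut also of epithelium under interferon gamma, while mouse T cells are not known for it. Rag1-/- hosts form neither T cells nor B cells, while their myeloid cells remain. C57BL/6 mice lack a functional I-E alpha gene, so H2-Eb1 is transcribed without a surface partner.

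In GENCODE vM21 (GRCm38), H2-DMa, H2-DMb1, H2-Ab1, H2-Aa and H2-Eb1 lie in the MHC on chromosome 17, between positions 34119541 and 34316674. Promoters of class II genes share an upstream module of X and Y boxes, through which Ciita is recruited, and cathepsin S has an interferon-stimulated response element (ISRE). RefSeq promoter sequences (GRCm38.p6) were matched for 5 of the 8 genes, and 4 of these are shown to place the boxes beside the expression values. Each holds the 250 bases before the annotated start, 5′ to 3′ on the gene's strand. Capitals mark matches to the Y box core TGATTGG, the X1 box core AACNGATG, the X2 box palindrome TGACGTCA or the ISRE core (GAAA, any 2 bases, GAAA), searched on both strands.
H2-Aa (chr17:34287824-34288073, minus strand): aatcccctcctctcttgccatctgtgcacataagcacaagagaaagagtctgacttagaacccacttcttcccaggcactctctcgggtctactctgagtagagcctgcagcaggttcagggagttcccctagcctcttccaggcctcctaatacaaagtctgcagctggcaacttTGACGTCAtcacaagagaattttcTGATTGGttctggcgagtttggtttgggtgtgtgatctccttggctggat
H2-Eb1 (chr17:34305617-34305866, plus strand): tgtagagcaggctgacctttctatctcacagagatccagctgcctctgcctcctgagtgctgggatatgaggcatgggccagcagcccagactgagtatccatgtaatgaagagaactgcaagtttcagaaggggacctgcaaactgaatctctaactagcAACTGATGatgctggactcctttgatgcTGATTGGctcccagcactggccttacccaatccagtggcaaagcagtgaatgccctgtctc
H2-DMb1 (chr17:34152941-34153190, plus strand): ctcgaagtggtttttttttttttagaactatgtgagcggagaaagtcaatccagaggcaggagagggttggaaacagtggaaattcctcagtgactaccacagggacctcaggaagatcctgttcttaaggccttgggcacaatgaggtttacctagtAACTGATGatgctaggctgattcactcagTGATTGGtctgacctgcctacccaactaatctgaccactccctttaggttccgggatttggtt
Ctss (chr3:95526536-95526785, plus strand): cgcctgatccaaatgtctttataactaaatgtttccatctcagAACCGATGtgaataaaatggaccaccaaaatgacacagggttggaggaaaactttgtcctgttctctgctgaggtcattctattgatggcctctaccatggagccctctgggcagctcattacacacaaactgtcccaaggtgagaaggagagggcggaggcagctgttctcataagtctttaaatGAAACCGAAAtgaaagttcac

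The Y box core began 50, 61 and 63 bases before the start in H2-Aa, H2-Eb1 and H2-DMb1, and was not found in the Ctss window. It was preceded by an X1 core in H2-Eb1 and H2-DMb1, with 20 and 21 bases between the boxes, and by an X2 palindrome in H2-Aa, with 16 bases between. Ctss held an ISRE core 21 bases before its start and an X1 core 207 bases before it. Among 32851 mouse promoter windows of 250 bases, 7.23% held the Y core, 1.98% the X1 core, 1.55% the X2 palindrome and 2.98% the ISRE core, and 0.146% held the Y and X1 cores together. The letters were settled on after the promoters had been read and other spellings tried, so these matches are descriptions. The matched H2-DMa windows, chr17:34122582-34122831 and chr17:34125268-34125517, held none of the 4 motifs. Both lie inside the annotated span of the gene (34119541 to 34139101). The bases before other starts of H2-DMa were not searched, so its promoter motifs remain undescribed.

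Library totals were 1685225 to 2767105 counts, with 8456 to 13184 genes detected. Mitochondrial genes took 6.63 to 26.8% of counts, and all 12 T cell markers were detected in every library. Small intestine shCD8 Asbt+/+ had the fewest genes. The targeted gene Abcb1a, shMdr1 against shCD8, had 102 against 228 counts in small intestine Asbt-/-, 36 against 62 in spleen Asbt-/- and 45 against 95 in spleen Asbt+/+. In small intestine Asbt+/+ it had 23 counts (14.7 CPM) in the library labelled shMdr1 and 21 counts (8.24 CPM) in the library labelled shCD8. The 95% counting intervals of these libraries overlapped (9.3 to 22.0 and 5.1 to 12.6 CPM), so the counts do not resolve a direction. They do not bear out the labels of that pair, and values set by hairpin below that include it are given as labelled. The fitted hairpin differences are also given without both libraries of that pair. Slc10a2 had 1 and 3 counts in its only libraries above 0, both Asbt-/-, too few to check the hosts.

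In the tissue comparison, the class II chains and the invariant chain were several-fold higher in small intestine cells than in spleen cells. Cd74 and H2-Aa rose past the threshold, by 4.38-fold and 5.50-fold. H2-Ab1 and H2-Eb1 had fitted differences of like size that did not pass it. The accessory genes H2-DMa and Ctss had smaller fitted differences, and Ciita was all but undetected. Levels are CPM, counts scaled to a common library size, with sizes adjusted by the trimmed mean of M-values (TMM). Calls are edgeR quasi-likelihood tests of an additive fit of tissue, hairpin and host, adjusted over 10000 tested genes (Benjamini-Hochberg, threshold 0.05). In bulk RNA, fewer cells of a type and less RNA per cell cannot be told apart.

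Cd74, the invariant chain, had 262 and 137 CPM in the shMdr1 small intestine libraries (Asbt-/-, then Asbt+/+) and 418 and 474 CPM in the shCD8 ones, against 74.1, 68.8, 64.3 and 64.6 CPM in spleen in the same order. The lowest small intestine library was the one labelled shMdr1 Asbt+/+, and it still stood above every spleen library. Means were 323 ± 153 CPM in small intestine and 67.9 ± 4.58 CPM in spleen (SD, n = 4 each), so the spread lay almost wholly in the small intestine. The log2 fold change was 2.13 ± 0.34 (SE, edgeR adjusted p = 0.0198).

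H2-Aa, the I-A alpha chain, had 110, 99.7, 155 and 134 CPM in small intestine, against 15.9, 51.4, 13.8 and 19.3 CPM in spleen. The spleen library shMdr1 Asbt+/+ was apart from the other 3 spleen libraries yet below all small intestine ones. The log2 fold change was 2.46 ± 0.45 (edgeR adjusted p = 0.0355).

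H2-Ab1, the I-A beta chain and partner of H2-Aa, had 99.0, 49.2, 209.7 and 108 CPM in small intestine, against 15.9, 33.1, 11.0 and 27.8 CPM in spleen. Groups did not overlap, with a log2 fold change of 2.32 ± 0.54 that did not pass (edgeR adjusted p = 0.110). H2-Eb1, the I-E beta chain, had 48.9, 66.4, 102 and 53.4 CPM in small intestine, against 6.13, 33.6, 8.58 and 9.41 CPM in spleen. Its groups also stood apart, again with shMdr1 Asbt+/+ the highest spleen library, and its log2 fold change was 2.41 ± 0.61 (edgeR adjusted p = 0.160).

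H2-DMa, the alpha chain of the peptide exchanger, had 52.8, 44.1, 46.1 and 90.7 CPM in small intestine, against 22.7, 28.2, 31.0 and 31.7 CPM in spleen. The groups did not overlap, but the log2 fold change was only 1.02 ± 0.38 (edgeR adjusted p = 0.463). H2-DMb1, its beta chain, rested on few counts, 12, 15, 23 and 43 in small intestine (4.73 to 16.9 CPM) against 3, 4, 4 and 0 in spleen. The spleen zero, in shCD8 Asbt+/+, allows up to 1.28 CPM, and the log2 fold change of 2.83 ± 1.37 did not pass (edgeR adjusted p = 0.623). H2-DMb2 is a near-identical copy, so reads may be split between the pair. The H2-DMa locus overlaps Brd2 on the opposite strand (2302 counts in all), which without strand information could lend it reads.

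Ctss, which cuts the invariant chain, had 130, 125, 239.9 and 373 CPM in small intestine, against 90.7, 107, 167 and 161 CPM in spleen. The 2 groups overlapped, with shMdr1 small intestine libraries below the shCD8 spleen libraries. The log2 fold change was 0.63 ± 0.25 (edgeR adjusted p = 0.494). Ciita had 3 counts in small intestine shCD8 Asbt-/- (1.19 CPM) and 0 in the other 7 libraries, where a zero allows up to 1.18 to 1.92 CPM. It did not pass the filter on low counts and was not tested, and at this depth its transcript was not detectable in either tissue beyond these 3 reads.

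**Figure D1:**
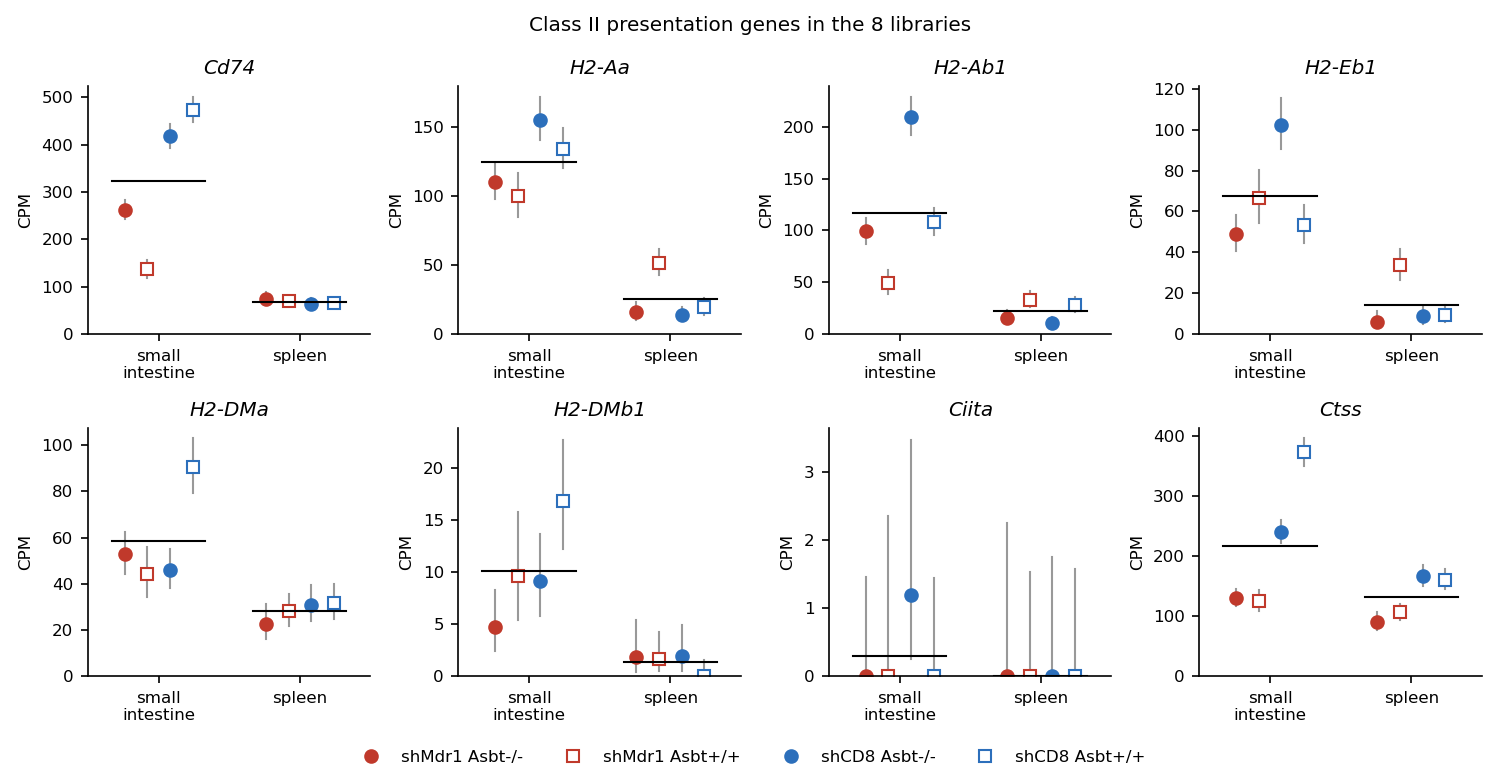
CPM of each of the 8 genes in each library, small intestine left and spleen right; colour gives the hairpin, fill the host, black bars the mean of 4 libraries and grey bars the 95% Poisson counting interval. Cd74 lies between 137 and 474 CPM in small intestine and between 64.3 and 74.1 CPM in spleen.

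Of the 8 genes, 7 passed the low-count filter, and 2 of these were called higher in small intestine and 0 lower, against 0.51% of all tested genes called higher, 0.11% called lower and 0.62% called in all. Every small intestine library exceeded every spleen library for 6 of the 8 genes, all but Ctss and Ciita, against 3.39% of tested genes higher and 4.68% lower in this way. The median log2 fold change of the 7 was 2.32, beside -0.17 over all tested genes. H2-DMb1 passed the filter through its small intestine counts alone, so the filter fixed its direction. Its place among the 7 tested genes therefore adds nothing on direction. All 7, H2-DMb1 included, were higher in 4 of 4 matched tissue pairs, alike in hairpin and host. Pair ratios varied, and for Cd74, H2-Aa, H2-Ab1 and H2-Eb1 the smallest was that of the pair labelled shMdr1 Asbt+/+ (1.98, 1.92, 1.47 and 1.95-fold with a prior count of 2). The largest was in shCD8 Asbt-/- for H2-Aa, H2-Ab1 and H2-Eb1 (10.6, 17.7 and 10.9-fold) and in shCD8 Asbt+/+ for Cd74 (7.25-fold).

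**Figure D2:**
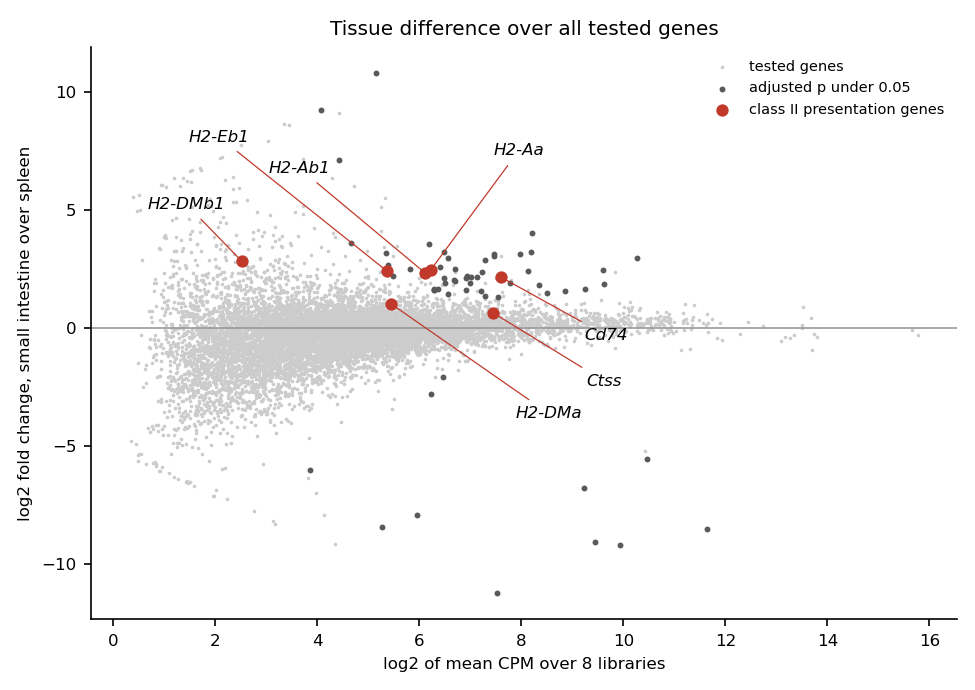
Fitted log2 fold change, small intestine over spleen, against the log2 of mean CPM for the 10000 tested genes; dark points passed the threshold and red points are the 7 tested class II presentation genes. Cd74 at 2.13 and H2-Aa at 2.46 are the 2 red points that passed.

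The calls were sensitive to single libraries. With 1 library left out in turn, Cd74 passed in 3 of 8 fits and H2-Aa in 2 of 8, while the direction held in all. Cd74 passed without shMdr1 small intestine Asbt+/+, shCD8 small intestine Asbt+/+ or shMdr1 spleen Asbt+/+, and H2-Aa without either of the last 2. Without both small intestine Asbt+/+ libraries, the log2 fold changes were 2.28 ± 0.36 for Cd74, 3.19 ± 0.50 for H2-Aa and 3.49 ± 0.48 for H2-Ab1. Their edgeR adjusted p-values were then 0.0376, 0.0352 and 0.0317, within ranges over all alternatives of 1.0e-06 to 0.152, 1.4e-05 to 0.255 and 0.00021 to 0.496.

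Per kilobase of merged exon (GENCODE vM21), the genes ranked differently in the 2 tissues. In small intestine Cd74 (192 ± 91.2 CPM per kb) and Ctss (160 ± 86.0) came first with overlapping ranges, followed by H2-Ab1 (45.3 ± 26.2), H2-Eb1 (34.9 ± 12.5) and H2-Aa (32.9 ± 6.57), which also overlapped one another. H2-DMa (16.9 ± 6.33) touched the range of H2-Aa, and H2-DMb1 (6.00 ± 2.99) lay below it. In spleen Ctss (96.8 ± 28.2 CPM per kb) stood above Cd74 (40.5 ± 2.73) with no overlap. H2-Ab1, H2-DMa, H2-Eb1 and H2-Aa then fell together at 8.55, 8.23, 7.42 and 6.61 CPM per kb, and H2-DMb1 was at 0.803. The ratio of Ctss to Cd74 CPM was 0.496 to 0.916 in the small intestine libraries and 1.22 to 2.60 in the spleen libraries.

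Few other genes of the pathway passed the tissue test. In that test, 845 of the 10000 tested genes had an unadjusted p under 0.05. Of the other class II genes, H2-Eb2 had 0 counts throughout, H2-DMb2 and H2-Oa had at most 22 and 5 counts in a library, and H2-Ob alone was tested (log2 fold change -2.55 ± 2.30, edgeR adjusted p = 0.826). H2-Oa and H2-Ob form the DM inhibitor. None of 11 tested lysosomal processing genes passed, with 0 at an unadjusted p under 0.05 and a median log2 fold change of 0.20. Ctsb, another cathepsin, had 0.54 ± 0.29, and Cst3, which encodes the cathepsin inhibitor cystatin C, had -0.33 ± 0.36. None of 12 transcription factors of the class II system passed (2 at an unadjusted p under 0.05, Irf4 and Irf8). Irf1, an interferon-induced factor, had a log2 fold change of -0.39 ± 0.23.

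MHC class I presentation gave 0 of 18 genes called and 0 at an unadjusted p under 0.05. Its summed H2-K1, H2-D1 and B2m level was 14930 to 26003 CPM in small intestine and 13395 to 17424 CPM in spleen, overlapping ranges, with B2m at a log2 fold change of 0.40 ± 0.42. The summed level of Cd74, H2-Aa, H2-Ab1 and H2-Eb1 was 352 to 886 CPM in small intestine and 97.7 to 187 CPM in spleen, without overlap.

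Of 15 genes of the interferon gamma axis, 1 was called and 11 were above 0, with a median log2 fold change of 0.75. An unadjusted p under 0.05 was found for 5 (Cxcl9, Ifngr1, Jak2, Gbp3 and Ifng, all above 0), against 845 of the 10000 tested genes. Cxcl9, an interferon gamma-induced chemokine typical of myeloid cells, had 43, 86, 75 and 179 counts in small intestine, against 1, 1, 0 and 0 in spleen (edgeR adjusted p = 0.00969). It passed the low-count filter through small intestine alone, so its direction was fixed by that filter. None of 7 costimulatory ligands passed (2 at an unadjusted p under 0.05, Cd83 and Pdcd1lg2), and Pdcd1lg2, a ligand of PD-1, had a log2 fold change of 1.28 ± 0.41.

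Markers of other cells that transcribe class II genes were detected in these sorted CD4+ cells, at levels that differed between libraries. Of the 14 dendritic cell markers, 3 to 9 were detected in small intestine and 4 to 8 in spleen. They summed to 53.2 to 104 CPM in small intestine and 15.9 to 33.6 CPM in spleen, without overlap. Cd207 and Clec4a4 were at 0 in all 8 libraries. Of 6 tested, 0 were called, 5 were above 0 and 1 was below, Zbtb46 (-1.34 ± 1.65). Ccl17 and Ccl22, with 4 and 5 counts over the spleen libraries, passed the low-count filter through small intestine alone, so the filter fixed their direction. Irf8 too would not have passed on its spleen counts alone. Summed over each tissue's libraries, the most abundant had 201 (Xcr1), 176 (Irf8) and 143 (Ccl17) counts in small intestine. Their spleen counts were 74, 34 and 4. Of the untested markers, Clec9a and Siglech had more counts in small intestine, and Itgax, Flt3, Cd209a and Clec10a had more in spleen. Sums of the 16 macrophage and monocyte markers overlapped, 337 to 704 CPM in small intestine (8 to 15 detected) and 220 to 618 CPM in spleen (10 to 15 detected), none at 0 throughout. Of the 11 tested, 0 were called and 2 had an unadjusted p under 0.05 (Apoe and C1qb), with 7 above 0 and 4 below, among them Cx3cr1 (-2.68 ± 1.68), Adgre1 (-1.91 ± 2.95) and Itgam (-1.03 ± 1.93). C1qb, a complement gene of tissue macrophages named for its closeness in pattern to the class II chains, had 31.1, 17.2, 31.8 and 52.2 CPM in small intestine, against 3.68, 7.46, 1.43 and 2.57 CPM in spleen (log2 fold change 3.27 ± 0.79, edgeR adjusted p = 0.135). That pattern holds the tissue split, so the tissue difference of C1qb is no separate observation. C1qb would also not have passed the low-count filter on its spleen counts alone. Ccr2, the most abundant macrophage and monocyte marker, which effector T cells also express, had -0.45 ± 0.47.

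B cell markers summed to 4.77 to 31.3 CPM in small intestine and 6.63 to 13.3 CPM in spleen (2 to 5 and 3 to 5 of 9 detected), with Pax5 and Fcer2a at 0 in all 8. The 18 epithelial markers summed to 62.7 to 950 CPM in small intestine and 24.8 to 263 CPM in spleen (8 to 14 and 1 to 14 detected), and 2 of the 14 tested were called higher in small intestine. Those 2, Tff2 and Defa24, had 0 counts in every spleen library, so the low-count filter fixed their direction. Innate lymphoid and NK markers summed to 335 to 664 CPM in small intestine and 190 to 387 CPM in spleen (6 to 9 and 7 to 9 of 10 detected), with Ncr1 at 0 throughout. Neutrophil markers differed the other way, with 10.6 to 192 CPM in small intestine and 854 to 7544 CPM in spleen (5 of 7 tested called lower, median log2 fold change -6.80). So did erythroid markers, with 38.1 to 104 CPM in small intestine and 1091 to 41380 CPM in spleen (3 of 7 called lower, median -7.92). Of all tested genes, 0.11% were called lower. Among the called markers, Camp, Ngp and Lcn2 had 1, 4 and 3 counts in small intestine, and Hba-a2 and Hbb-bt 22 and 17. Those genes passed the low-count filter through spleen alone, so the filter fixed their direction. The highest erythroid sum was that of shMdr1 spleen Asbt-/-, which had 3.69% hemoglobin and 26.8% mitochondrial counts. The part of these cells in the class II difference was not tested.

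**Figure D3:**
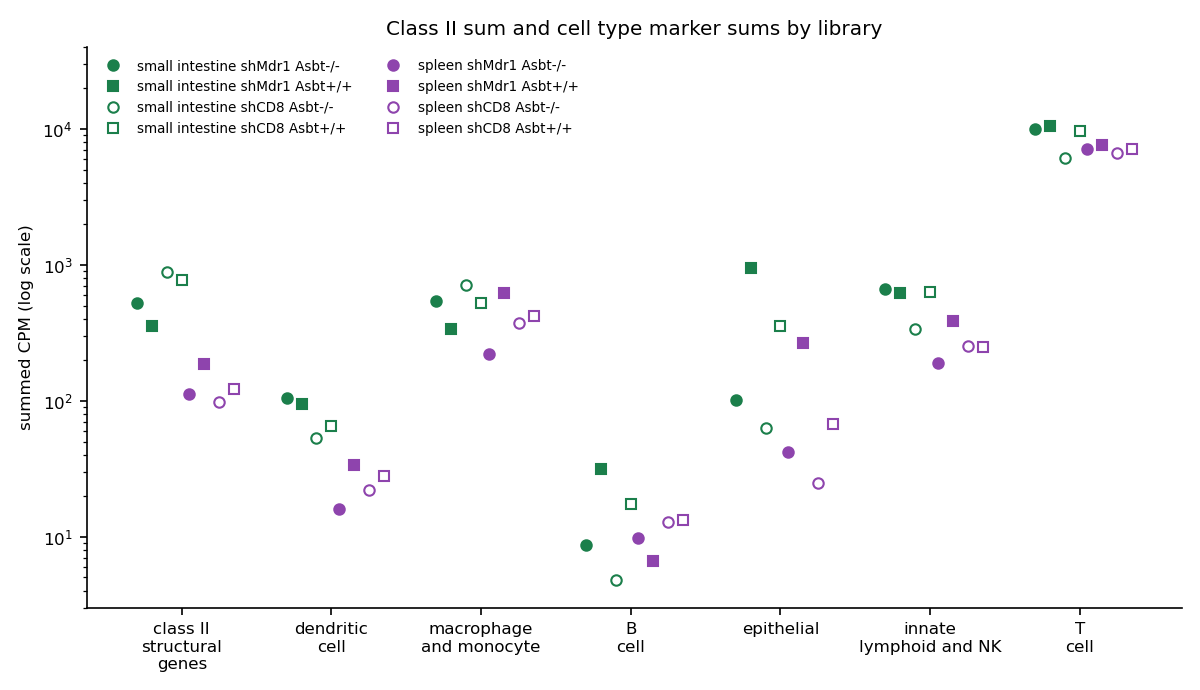
Summed CPM (log scale) of Cd74, H2-Aa, H2-Ab1 and H2-Eb1 and of 6 marker lists in each library; green is small intestine, purple spleen, filled shMdr1, open shCD8, circles Asbt-/- and squares Asbt+/+. The class II and dendritic cell sums separate the tissues, while the macrophage and monocyte sums overlap.

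The spleen library with the most H2-Aa and H2-Eb1, shMdr1 Asbt+/+, was also the spleen library with the highest macrophage and monocyte (618 CPM), dendritic (33.6 CPM) and epithelial (263 CPM) sums, and equally with the highest neutrophil (7544 CPM), innate lymphoid and NK (387 CPM) and T cell (7663 CPM) sums. Among 6978 genes with a mean of at least 10 CPM, those closest to the mean log2 pattern of the 4 structural genes over the 8 libraries were Sbds (Pearson r = 0.98), Hif1a (0.97), Dleu2 (0.97), Lilrb4a (0.97), C1qb (0.96), Lilr4b (0.96), Egr2 (0.96) and Pkm (0.96). For Ctss they were Ypel5 (0.97), Pmaip1 (0.96), Dtd1 (0.96) and Ergic1 (0.95). Among the members, H2-Aa and H2-Eb1 were the most alike (r = 0.98), and r of Ctss with the 4 structural genes was 0.43 to 0.71. These correlations share the 8 libraries and the tissue split, and are descriptions.

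In the hairpin comparison, which asks how knockdown of Mdr1 alters the cells, no member was called and Ctss showed the widest separation. Ctss averaged 113 ± 18.1 CPM with shMdr1 and 235 ± 98.7 CPM with shCD8 (SD, n = 4 each). Its shMdr1 libraries, 90.7 to 130 CPM, all lay below the shCD8 libraries, 161 to 373 CPM, and it was lower in 4 of 4 pairs as labelled. Without the small intestine Asbt+/+ pair the ranges were 90.7 to 130 CPM with shMdr1 and 161 to 239.9 CPM with shCD8, still apart, and it was lower in 3 of 3 pairs. With the labels of that pair exchanged, the groups would overlap. The log2 fold change was -0.99 ± 0.25, the ninth smallest p of 10000 genes (unadjusted p = 0.00216), but did not pass (edgeR adjusted p = 0.999). Without both small intestine Asbt+/+ libraries, whose labels Abcb1a does not bear out, it was -0.78 ± 0.26 (adjusted p = 0.848, range over alternatives 0.365 to 1).

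Of the 7 tested genes, 0 were called for hairpin, against 0% of all tested genes, with Ctss alone at an unadjusted p under 0.05 and 0 members called by limma-voom or DESeq2. As labelled, Ctss was the 1 gene of 8 whose hairpin groups did not overlap, against 1.34% of tested genes lower and 1.45% higher without overlap. The other log2 fold changes were -0.54 ± 0.33 for Cd74, -0.41 ± 0.50 for H2-Ab1, -0.38 ± 0.38 for H2-DMa, -0.11 ± 1.48 for H2-DMb1, 0.19 ± 0.60 for H2-Eb1 and 0.21 ± 0.42 for H2-Aa. Their median with Ctss was -0.38, beside 0.09 over all tested genes. Without both small intestine Asbt+/+ libraries these were -0.14 ± 0.29 for Cd74, -0.18 ± 0.37 for H2-Ab1, -0.13 ± 0.33 for H2-DMa, 0.36 ± 1.40 for H2-DMb1, 0.053 ± 0.56 for H2-Eb1 and 0.34 ± 0.39 for H2-Aa.

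Cst3, the inhibitor of cathepsins, had 515, 426, 342 and 333 CPM in shMdr1 libraries (small intestine Asbt-/- and Asbt+/+, then spleen), against 160, 108, 253 and 336 CPM in shCD8 libraries. It was higher in 3 of 4 pairs, or 2 of 3 without the small intestine Asbt+/+ pair, with a log2 fold change of 1.00 ± 0.36 (edgeR adjusted p = 0.999), opposite in sign to Ctss. No gene of the other pathway lists passed for hairpin or host. Over all 10000 tested genes edgeR called 0 for hairpin (299 at an unadjusted p under 0.05) and 0 for host (271), limma-voom called 0 for both, and DESeq2 called 3 and 6.

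Cd74 was lower in both small intestine pairs, 262 CPM with shMdr1 against 418 CPM with shCD8 in Asbt-/- hosts, and 137 CPM in the library labelled shMdr1 against 474 CPM in that labelled shCD8 in Asbt+/+ hosts. In spleen it was 74.1 against 64.3 and 68.8 against 64.6 CPM. The hairpin difference in small intestine minus that in spleen was -1.34 ± 0.54 on the log2 scale (unadjusted p = 0.0321, edgeR adjusted p = 1), and -1.87 to -0.90 with 1 library left out in turn. As labelled, this interaction was below 0 for all 7 tested genes, with a median of -1.43, beside 0.16 over all tested genes. The members vary together over the same 8 libraries, so the 7 signs are not separate observations. The interaction was -1.43 ± 0.75 for H2-Aa, -1.44 ± 0.91 for H2-Ab1, -1.55 ± 1.10 for H2-Eb1 and -0.50 ± 0.50 for Ctss. None was called, against 0% of all tested genes, with 169 of the 10000 tested genes at an unadjusted p under 0.05 and 0 called by limma-voom or DESeq2. Without both small intestine Asbt+/+ libraries, in a fit added after seeing the data that leaves 1 small intestine library per hairpin, it was above 0 for H2-DMa (0.50 ± 0.66) and near 0 for Ctss (-0.15 ± 0.45). It was then -0.82 ± 0.45 for Cd74, -1.40 ± 0.56 for H2-Aa, -1.45 ± 0.55 for H2-Ab1 and -1.97 ± 0.70 for H2-Eb1, none called.

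In the host comparison, which sets cells from hosts lacking the ileal bile acid transporter against those from hosts with it, no member was called and no member's groups were free of overlap. Log2 fold changes were 0.15 ± 0.32 for Cd74, -0.04 ± 0.50 for H2-Ab1, -0.04 ± 2.16 for H2-DMb1, -0.21 ± 0.25 for Ctss, -0.27 ± 0.38 for H2-DMa, -0.47 ± 0.43 for H2-Aa and -0.49 ± 0.61 for H2-Eb1 (edgeR adjusted p = 0.996 to 0.999). The background was 0% called, 1.78% higher and 0.93% lower without overlap, no member had an unadjusted p under 0.05, and limma-voom and DESeq2 called 0 members. The median was -0.21, beside 0.11 over all tested genes.

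**Figure D4:**
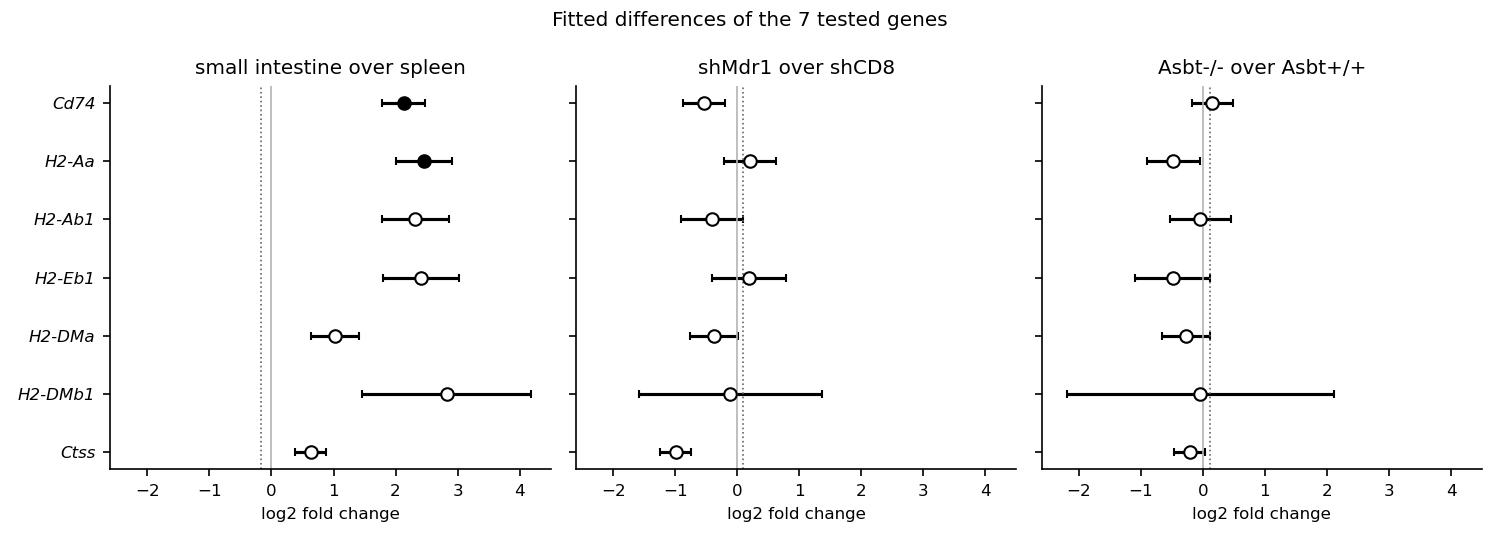
Fitted log2 fold changes with SE bars for the 7 tested genes, in order small intestine over spleen, shMdr1 over shCD8 and Asbt-/- over Asbt+/+; filled points passed the adjusted threshold and the dotted line is the median of all tested genes. Points lie at 0.63 to 2.83 for tissue, -0.99 to 0.21 for hairpin and -0.49 to 0.15 for host.

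Host ratios of H2-Ab1, as labelled, had opposite signs in the 2 tissues. In small intestine it was 99.0 CPM in Asbt-/- hosts against 49.2 CPM in Asbt+/+ hosts with shMdr1, and 209.7 against 108 CPM with shCD8, log2 ratios of 1.00 and 0.95. These small intestine pairs follow hairpin labels that Abcb1a does not bear out in Asbt+/+ hosts. Paired the other way, the values are 99.0 against 108 CPM and 209.7 against 49.2 CPM, of opposite direction. In spleen it was 15.9 CPM in Asbt-/- hosts against 33.1 CPM in Asbt+/+ hosts with shMdr1, and 11.0 against 27.8 CPM with shCD8, log2 ratios of -1.02 and -1.27. The host difference in small intestine minus that in spleen was 2.15 ± 0.77 (unadjusted p = 0.0231, edgeR adjusted p = 0.837). H2-Aa and H2-Eb1 had 1.40 ± 0.76 and 1.86 ± 1.05, Cd74 had 0.19 ± 0.69, and H2-DMa, H2-DMb1 and Ctss were below 0 at -0.20 ± 0.76, -2.06 ± 2.36 and -0.22 ± 0.48. The members thus split 4 above and 3 below 0, with a median of 0.19, beside 0.29 over all tested genes. No member was called, against 0% of all tested genes, and limma-voom and DESeq2 called 0 members. Of all tested genes, 594 had an unadjusted p under 0.05, limma-voom called 0 and DESeq2 33. Host log2 fold changes of epithelial markers were below 0 for 14 of 14 tested, with 0 called and a median of -3.62. Over all tested genes the host median was 0.11, and 57.3% were above 0. Of these markers, Reg3b, Reg3g and Tff2 passed the low-count filter through Asbt+/+ hosts, so the filter fixed their direction. In Asbt-/- hosts Reg3g had 14 counts in small intestine shMdr1 and 0 elsewhere. The part of epithelial markers in the class II values was not tested.

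**Figure D5:**
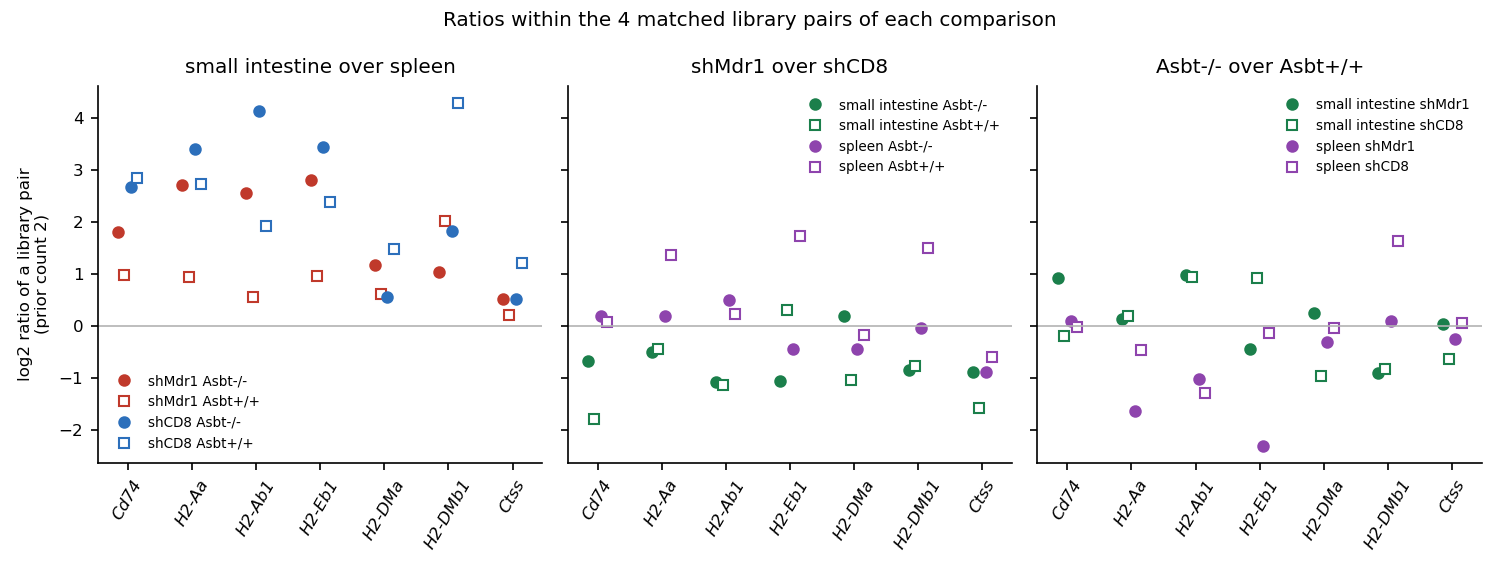
Log2 ratios of CPM (prior count of 2) within the 4 matched library pairs of each comparison, 1 column of points a gene; in the hairpin and host panels green is small intestine and purple spleen. As labelled, Ctss lies below 0 in all 4 hairpin pairs, and H2-Ab1 in the host panel lies above 0 in both small intestine pairs and below 0 in both spleen pairs.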

How the data were processed

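RNA was measured in 8 libraries of sorted T cells, made with a SMART-Seq ultra-low-input kit without molecular identifiers, per the labels' protocols. The values the authors deposited are raw read counts per gene. TopHat, HTSeq and DESeq2 were used with mouse build mm9, per the submitters' processing notes. The sources used here give neither tool versions nor the strand setting. Overlapping genes and near-identical copies are therefore uncertain. Hairpins follow the sample titles, since another label names shMdr1 for all 8.

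The filterByExpr function of edgeR 4.0.16 (R 4.3.3) kept 10000 of 17570 genes with a count. Counts were scaled with TMM and tested with edgeR's quasi-likelihood F test in an additive fit with 4 residual degrees of freedom, and interactions with 3. SE is the size of the log2 fold change over the root of its F statistic. Alternatives used limma 3.58.1 and DESeq2 1.42.0. The fits were also run on simulated counts with the same dispersion for every gene and no interactions. That setting is simpler than these data, so the run checks the code only. Intervals and zero limits (3 counts) cover counting error only. The labels do not say that libraries came from separate animals, so p-values measure the spread between these libraries. With 1 library per combination, the spread left in the additive fit holds interactions of tissue, hairpin and host as well as library noise.

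The members, lists and markers were chosen with earlier results of these data known. All members were named, as were called genes of each list, or its 2 most abundant. Some items are not reported here. Exon lengths are from GENCODE vM21 on GRCm38, not the authors' build, and are approximate.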

Additional observations from a re-analysis of the deposited data

Results flagged for a closer look

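Sample values far from the other 3 of their tissue were sought in 16 groups (8 genes in 2 tissues), and 4 were found. The rule marks about 1 in 20 by chance only where values are normally spread. Counts near 0 are not, so the 4 cannot be set against that rate. With 3 libraries at 0, as for Ciita in small intestine, any count in the remaining library is marked. Ciita in spleen, at 0 throughout, could not be marked. In spleen, shMdr1 Asbt+/+ had 51.4 CPM of H2-Aa, against 13.8 to 19.3 CPM in the other 3 libraries, and 33.6 CPM of H2-Eb1, against 6.13 to 9.41 CPM. The 0 CPM of H2-DMb1 in shCD8 spleen Asbt+/+ stood apart from 1.66 to 1.91 CPM, a gap of 3 or 4 counts. Ciita in shCD8 small intestine Asbt-/- had 1.19 CPM, 3 counts, against 0 in the other 3 small intestine libraries.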

How the results depend on the processing

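The tissue direction held for all 7 tested members under every alternative run, though the low-count filter fixed that of H2-DMb1 in the main fit. Members called for tissue numbered 2, and 4 with no filter on low counts or with DESeq2 (H2-Ab1 and H2-Eb1 added), and 0 to 4 with 1 library left out, while all genes called numbered 62 and then 165, 257 and 12 to 145. Those leave-out fits kept the 10000 genes. With the filter redone in each, an alternative added after seeing the data, the members called were also 0 to 4 and all genes 11 to 137. Without both small intestine Asbt+/+ libraries 40 genes were called. A replicate block of the matched pairs, which are alike in the other factors but have no label that ties them to an animal, changed no member's call and gave 54 genes for tissue. The cause of these changes was not tested.

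For the other comparisons, no filter gave 9 genes called for hairpin, 14 for host, 4 for the hairpin interaction and 25 for the host interaction, and DESeq2 gave 3, 6, 0 and 33. Leaving out 1 library gave 0 to 4 genes for host, 0 to 719 for the hairpin interaction and 0 to 1306 for the host interaction, the highest without shCD8 small intestine Asbt+/+, shCD8 small intestine Asbt-/- and shMdr1 small intestine Asbt+/+. Without both small intestine Asbt+/+ libraries, added after seeing the data, the hairpin interaction gave 512 genes and changed sign for H2-DMa (0.50). No member was among the genes called.

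Small, uncalled log2 fold changes changed sign. For hairpin these were H2-Aa and H2-Eb1 with limma-voom (-0.13 for both) or without covariates (-0.22 and -0.17), and H2-DMb1 with the replicate block (0.051) or with both small intestine Asbt+/+ libraries left out (0.36). For host they were H2-Ab1 and H2-Eb1 with limma-voom (0.51 and 0.051) or without covariates (0.62 and 0.039), and H2-DMb1 with the block (0.12) or with both small intestine Asbt+/+ libraries left out (1.23). With 1 library left out, the ranges that crossed 0 for hairpin were -0.32 to 0.56 for H2-Aa, -0.90 to 0.15 for H2-Ab1, -0.71 to 0.59 for H2-DMb1 and -0.48 to 0.74 for H2-Eb1. For host they were -0.14 to 0.48 for Cd74, -0.83 to 0.035 for H2-Aa, -0.56 to 0.43 for H2-Ab1, -0.67 to 0.65 for H2-DMb1 and -1.02 to 0.094 for H2-Eb1. For the hairpin interaction they were -0.59 to 0.36 for H2-DMa and -2.36 to 0.21 for H2-Eb1, and for the host interaction -0.48 to 1.18 for Cd74, -0.60 to 0.20 for Ctss and -0.65 to 0.27 for H2-DMa.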
